A study of Mus musculus with 4 samples.

Results

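The genes examined here are 10 genes of ferroptosis and iron handling, taken by name from the table of expression values: Slc7a11, Slc3a2, Gpx4, Acsl4, Lpcat3, Aifm2, Tfrc, Fth1, Ftl1 and Ncoa4. They are 10 of the 11502 gene symbols to which the deposited transcripts could be assigned. They were chosen by function, with earlier results of these data known, and all 10 were above 1 FPKM (fragment counts scaled by transcript length and by the mapped fragments of the library) in every library. The data are 4 RNA-Seq libraries of HT-22, a cell line derived from mouse hippocampus. The Ctrl library came from wild type cells carrying a negative control lentivirus, and the PGC-1α library from cells overexpressing PGC-1α from a lentivirus, both kept in normal medium without further treatment. The Ctrl+OGD and PGC-1α+OGD libraries came from the same kinds of cells after oxygen and glucose deprivation (OGD) for 2 h in medium lacking serum and glucose, followed by 24 h of recovery in normal medium. Transduced cells had been selected with puromycin, so that all 4 libraries describe selected cells of 1 line, and whether they were clones is not given in the sources used here. Each group has 1 library, which means that no difference below has a replicate check, and no test or p value is given.

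Ferroptosis is a form of cell death in which iron drives the peroxidation of polyunsaturated phospholipids. Cells hold it back by importing cystine to make glutathione, with which GPX4 reduces lipid peroxides, while a parallel route through reduced coenzyme Q depends on the protein encoded by Aifm2. How much reactive iron a cell holds depends on uptake through the transferrin receptor, on storage in ferritin and on the release of stored iron when NCOA4 carries ferritin to the lysosome. HT-22 cells are a common model of this chemistry, since glutamate blocks their cystine import and kills them through glutathione loss.

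In the comparison of PGC-1α with Ctrl, 3 of the 10 genes were at least 1.5-fold higher, as were 4.91% of all genes compared: Ncoa4, the ferritin light chain gene Ftl1, and Aifm2. None was at least 1.5-fold lower, as were 5.63% of all genes. Between PGC-1α+OGD and Ctrl+OGD no gene reached 1.5-fold on the log2(FPKM + 1) scale, where 3.08% of all genes were higher and 3.82% lower, but Aifm2 did so with a smaller pseudocount (FPKM ratio 1.53). In Ctrl+OGD vs Ctrl, 1 gene (Ftl1) was higher and none lower, beside 6.20% and 7.71% of all genes. In PGC-1α+OGD vs PGC-1α, 1 gene (Ncoa4) was lower and none higher, beside 5.22% and 3.82% of all genes. Gpx4 differed least, by a factor of 1.06 between its highest and lowest library, and Ncoa4 differed most, by a factor of 3.91.

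Fold changes are differences of log2(FPKM + 1) after the deposited transcripts of each gene were summed, and 1.5-fold is 0.58 on that scale. The shares above are of the 10604 genes whose mean reached 1 FPKM, among which all 10 genes were. The median log2 fold change of the 10 genes was 0.05, 0.14, -0.14 and 0.06 in these 4 comparisons, taken in the order just given, beside -0.03, -0.01, -0.02 and 0.00 over all genes tested. Each library enters 2 of the 4 comparisons, so that a single value can move both. The pairs that share no library are the PGC-1α comparisons without and with OGD, and the OGD comparisons in the 2 kinds of cells.

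The overexpressed gene Ppargc1a, which encodes PGC-1α, was at 0.900 FPKM in Ctrl against 35.1 FPKM in PGC-1α, and 0.103 FPKM against 8.41 FPKM in the same cells after OGD. Its log2 fold change in PGC-1α+OGD vs PGC-1α was -1.94, 20th from the bottom of all genes tested. The libraries with PGC-1α thus differed in the level of the overexpressed gene itself. Column totals of the table lay between 331892 and 353381 FPKM, and the number of reads behind them is unknown. The paper describes HT-22 as a cell line of hippocampal neurons. Of 12 neuronal marker genes, 2 had transcripts that could be analysed, Camk2a at 4.40 to 7.31 FPKM and Syp at up to 0.997 FPKM, and the other 10, among them Rbfox3, Map2, Tubb3 and Snap25, had no value to analyse here. Of 4 fibroblast markers, Col1a1, Col1a2 and Pdgfra summed to between 432 and 523 FPKM, and Dcn had no value to analyse here. Of the markers of other cell types, 2 of 5 for astrocytes, 2 of 5 for microglia and 1 of 4 for oligodendrocytes had a value. For endothelial cells it was 0 of 3. The markers with a value summed to at most 5.62 FPKM for any of these types. A lower level in fewer cells and less RNA in each cell cannot be told apart in bulk RNA.

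**Figure D1:**
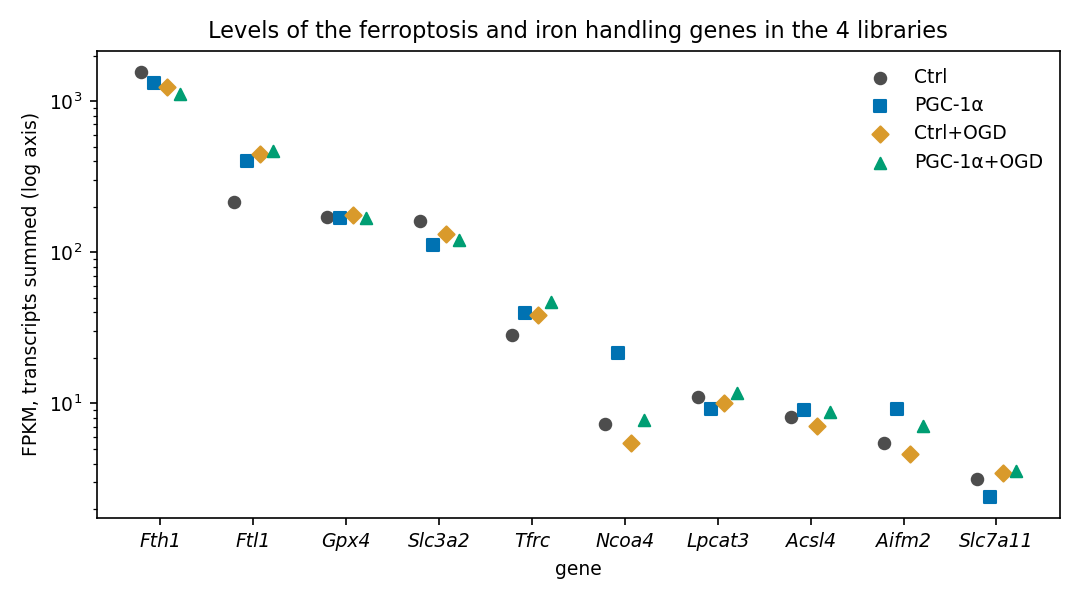
Level of each gene in the 4 libraries, as FPKM summed over its deposited transcripts, on a log axis, with genes ordered by their mean and 1 point per library. Levels run from 1557 FPKM for Fth1 in Ctrl to 2.42 FPKM for Slc7a11 in PGC-1α, and the points of a gene lie close together except for Ftl1 in Ctrl, Ncoa4 in PGC-1α and, less so, Aifm2.

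Cystine enters through system xc-, a pair of proteins in which Slc7a11 encodes the transporting light chain and Slc3a2 the heavy chain that brings it to the membrane. Slc7a11 (ENSMUSG00000027737, chromosome 3, 49892526 to 50443614, minus strand, GRCm38) was at 3.18 and 2.42 FPKM in untreated Ctrl and PGC-1α cells, and 3.49 and 3.57 FPKM in their OGD counterparts. The PGC-1α library was the lowest and the other 3 lay close together. Its log2 fold changes were -0.29 for PGC-1α vs Ctrl, 0.03 for PGC-1α+OGD vs Ctrl+OGD, 0.10 for Ctrl+OGD vs Ctrl, while PGC-1α+OGD vs PGC-1α gave 0.42, the last being the highest of the 10 genes in that comparison and still under 1.5-fold.

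Slc3a2 (ENSMUSG00000010095, chromosome 19, 8706882 to 8723369, minus strand) was at 161 FPKM in Ctrl, with 111 FPKM in PGC-1α, and at 132 and 120 FPKM in Ctrl+OGD and PGC-1α+OGD. Like its partner it was lowest in PGC-1α, with a log2 fold change of -0.53 against Ctrl, the lowest of the 10 genes and 753rd from the bottom among the 10604 genes tested. The heavy chain was far more abundant than the light chain, by 50.6, 46.1, 37.9 and 33.7 times in Ctrl and PGC-1α, then Ctrl+OGD and PGC-1α+OGD, on the FPKM scale. SLC3A2 also pairs with other amino acid transporters. One transcript, Slc3a2-201, held between 92.2% and 94.5% of the FPKM of the gene in each library.

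The promoter window of Slc7a11, 250 bases before and 50 after its RefSeq start on GRCm38.p6, holds the CEBP-ATF response element TGATGNAA on both strands, through which ATF4 is known to act. The stretch that holds both matches is shown because ATF4 is a known activator of Slc7a11. It lies at chr3:50443650-50443679 on the minus strand, starting 66 bases before the start site, with the matches in capitals.

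Slc7a11 promoter: TGATGCAAacctggagaatTTGCATCAtca

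The same letters occur on either strand in 3.97% of the 32851 promoter windows of the reference, and in 1 of the 17 windows that belong to the 10 genes. Atf4 itself was at 314 FPKM in Ctrl against 221 FPKM in PGC-1α, and 367 FPKM against 348 FPKM in the same cells after OGD. Chac1, which encodes an enzyme that degrades glutathione, was at 8.57, 2.06, 9.73 and 11.8 FPKM in that order, and Cth, the enzyme that makes cysteine from cystathionine, at 46.6, 36.0, 56.5 and 55.2 FPKM. All 3 were lowest in PGC-1α, as were Slc7a11 and Slc3a2, a grouping made after the values were seen. Of the 3, Chac1 alone passed 1.5-fold against Ctrl (log2 fold change -1.65), while Atf4 (0.65), Cth (0.60) and Chac1 (2.07) all did so when PGC-1α cells with and without OGD were compared, PGC-1α+OGD being higher. A match of letters is a description and not a measured binding site. Whether the level of Atf4 bears on Slc7a11 or the other genes was not tested.

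Gpx4 encodes the selenoenzyme that reduces phospholipid hydroperoxides with glutathione. The gene (ENSMUSG00000075706, chromosome 10, 80047166 to 80056439, plus strand) was at 171 and 167 FPKM in untreated Ctrl and PGC-1α cells, and 176 and 167 FPKM in their OGD counterparts. All 4 values lay within 1.06-fold, and the log2 fold changes ran from -0.08 to 0.05, the narrowest range among the 10 genes. The largest part of it came from Gpx4-202, with 157, 161, 171 and 160 FPKM. Gpx4-201, which starts further downstream with another first exon, was at 11.9 FPKM in Ctrl and between 3.85 and 4.88 FPKM in the other 3 libraries, which is 6.95% of the gene in Ctrl and between 2.18% and 2.92% in the others.

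Aifm2, also known as FSP1, encodes an oxidoreductase that keeps coenzyme Q reduced at membranes and so stops lipid peroxidation without glutathione. The gene (ENSMUSG00000020085, chromosome 10, 61715263 to 61739260, plus strand) was at 5.49 FPKM in Ctrl, with 9.21 FPKM in PGC-1α, and at 4.64 and 7.12 FPKM in Ctrl+OGD and PGC-1α+OGD. Both libraries with PGC-1α were above both libraries without it. With PGC-1α, the log2 fold change without OGD was 0.66, 407th from the top among all genes tested, and after OGD one of 0.53, 388th from the top and the highest of the 10 genes there. Without the pseudocount, the FPKM ratios were 1.68 and 1.53. These 2 comparisons share no library.

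Aifm2 lay close to the 1.5-fold line, and its place relative to it changed with the settings. With a pseudocount of 0.1 the difference after OGD was 0.61, past 1.5-fold. By its most abundant transcript alone, Aifm2-203, the log2 fold changes were 0.52 without OGD and 0.29 after OGD, both under 1.5-fold. The shorter Aifm2-201 was at 0.87 FPKM in Ctrl against 2.33 FPKM in PGC-1α, and 0.96 FPKM against 1.90 FPKM in the same cells after OGD, again higher in both libraries with PGC-1α. OGD went with slightly lower Aifm2 in both kinds of cells, with log2 fold changes of -0.20 in control cells and -0.33 in PGC-1α cells.

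Acsl4 and Lpcat3 supply the substrate of ferroptosis: ACSL4 activates long polyunsaturated fatty acids and LPCAT3 places them into phospholipids. Acsl4 (ENSMUSG00000031278, chromosome X, 142317993 to 142390535, minus strand) was at 8.18 and 8.98 FPKM in untreated Ctrl and PGC-1α cells, and 7.13 and 8.81 FPKM in their OGD counterparts. It was a little higher in each library with PGC-1α than in its partner without, by log2 fold changes of 0.12 and 0.27. The share of Acsl4-203 in the gene was 72.6% and 65.6% without OGD and 52.3% and 54.8% after OGD, and that of Acsl4-202, whose length differs by only 3 bases, was 24.3% and 21.2% without OGD and 38.8% and 43.0% after it. Transcripts that are this alike share most of their reads, and how the authors divided such reads is not given in the sources used here.

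Lpcat3 (ENSMUSG00000004270, chromosome 6, 124663027 to 124704418, plus strand) has 1 deposited transcript, at 10.96 FPKM in Ctrl, with 9.12 FPKM in PGC-1α, and at 10.1 and 11.6 FPKM in Ctrl+OGD and PGC-1α+OGD. Its log2 fold changes were -0.24 for PGC-1α vs Ctrl, and after OGD 0.19, both small and of opposite sign. Gpx4 exceeded Acsl4 by 20.9, 18.6, 24.7 and 19.0 times in Ctrl and PGC-1α, then Ctrl+OGD and PGC-1α+OGD, so this ratio of a peroxide-reducing enzyme to a substrate-supplying one was highest in Ctrl+OGD.

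**Figure D2:**
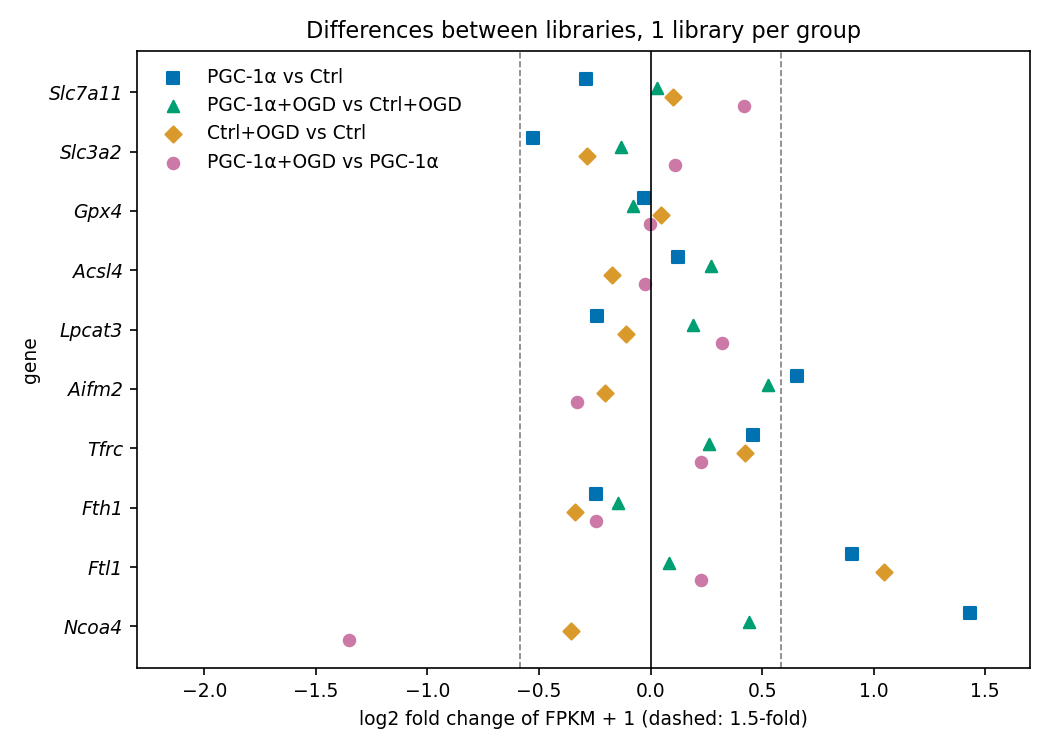
Log2 fold change of FPKM + 1 for each gene in the 4 comparisons, 1 point per comparison, with dashed lines at 1.5-fold. Ncoa4 (1.43), Ftl1 (0.90) and Aifm2 (0.66) lie past the line in PGC-1α vs Ctrl, Ftl1 (1.05) in Ctrl+OGD vs Ctrl and Ncoa4 (-1.35) in PGC-1α+OGD vs PGC-1α, while every point of PGC-1α+OGD vs Ctrl+OGD lies between the lines.

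Iron enters most cells as transferrin bound to the receptor encoded by Tfrc. Translation of ferritin and the stability of Tfrc mRNA are controlled by iron regulatory proteins, which bind a hairpin called the iron-responsive element when iron is scarce: in the 5′ part of ferritin mRNA this blocks translation, and in the 3′ part of Tfrc mRNA it protects the mRNA from decay. The elements are shown because iron status acts through them on ferritin and on Tfrc in opposite directions. They were found in the GENCODE transcripts as a bulged C, a stem of 5 bases, the loop CAGTG with any base but G after it, and 5 bases that pair with the first 5, with G and T allowed as a pair. The pattern was found in 223 of 25811 deposited transcripts searched (0.864%), and in 3 of the 29 transcripts of the 10 genes. An element that departs from this pattern would be missed. The bulged C and the loop are in capitals, in DNA letters.

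Fth1, 5′ untranslated, chr19:9982732-9982760, plus strand: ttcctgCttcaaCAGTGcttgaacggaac
Ftl1, 5′ untranslated, chr7:45459779-45459807, minus strand: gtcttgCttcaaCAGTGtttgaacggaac
Tfrc site 1, 3′ untranslated, chr16:32631219-32631247, plus strand: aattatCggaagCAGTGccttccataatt
Tfrc site 2, 3′ untranslated, chr16:32631598-32631626, plus strand: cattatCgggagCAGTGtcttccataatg
Tfrc site 3, 3′ untranslated, chr16:32631663-32631691, plus strand: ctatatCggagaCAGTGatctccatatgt
Tfrc site 4, 3′ untranslated, chr16:32631710-32631738, plus strand: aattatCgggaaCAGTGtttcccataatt

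Tfrc (ENSMUSG00000022797, chromosome 16, 32608920 to 32632794, plus strand) was at 28.5 FPKM in Ctrl against 39.7 FPKM in PGC-1α, and 38.7 FPKM against 46.6 FPKM in the same cells after OGD. Ctrl was the lowest and PGC-1α+OGD the highest, and all 4 comparisons gave a positive log2 fold change under 1.5-fold: 0.46 for PGC-1α vs Ctrl, 0.26 for PGC-1α+OGD vs Ctrl+OGD, 0.42 for Ctrl+OGD vs Ctrl, while PGC-1α+OGD vs PGC-1α gave 0.23. PGC-1α+OGD stood 1.63-fold above Ctrl in FPKM. Tfrc-201, the transcript that carries the 4 matches to the pattern, held between 70.6% and 75.0% of the gene in each library. It was at 20.7 and 29.7 FPKM in untreated Ctrl and PGC-1α cells, and 28.5 and 32.9 FPKM in their OGD counterparts. Tfrc-202, a shorter form of 1860 bases in which the pattern was not found, was at 6.55, 8.60, 6.91 and 12.02 FPKM in the same order.

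Ferritin stores iron in a shell of heavy chains, which oxidize iron, and light chains, which help it mineralize. Fth1, the heavy chain gene (ENSMUSG00000024661, chromosome 19, 9980598 to 9985098, plus strand), was at 1557 FPKM in Ctrl, with 1316 FPKM in PGC-1α, and at 1231 and 1111 FPKM in Ctrl+OGD and PGC-1α+OGD. It was the 4th, 8th, 14th and 19th most abundant gene of the 11502 in these libraries. Each log2 fold change was below 0 and under 1.5-fold: -0.24 for PGC-1α vs Ctrl, -0.15 for PGC-1α+OGD vs Ctrl+OGD, -0.34 for Ctrl+OGD vs Ctrl, while PGC-1α+OGD vs PGC-1α gave -0.24.

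Ftl1, the light chain gene (ENSMUSG00000050708, chromosome 7, 45457944 to 45459884, minus strand), was at 214 FPKM in Ctrl against 401 FPKM in PGC-1α, and 444 FPKM against 470 FPKM in the same cells after OGD. Ctrl stood apart as the lowest, while the other 3 lay within 1.17-fold of PGC-1α. Ftl1 was 0.90 higher on the log2 scale in PGC-1α than in Ctrl, 202nd from the top of all genes tested, and 1.05 higher in Ctrl+OGD than in Ctrl, 146th from the top. In the comparisons that leave Ctrl out, PGC-1α+OGD vs Ctrl+OGD (0.08) and PGC-1α+OGD vs PGC-1α (0.23), it was under 1.5-fold. The Ftl1 differences past 1.5-fold therefore rest on 1 value, that of the Ctrl library.

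With Fth1 lower and Ftl1 higher outside Ctrl, the ratio of heavy to light chain was 7.27 in Ctrl against 3.28 in PGC-1α, and 2.78 against 2.37 after OGD, on the FPKM scale. The sum of both chains differed less, from 1771 FPKM in Ctrl to 1581 FPKM in PGC-1α+OGD. Ferritin genes, like Gpx4, have processed pseudogene copies, between which reads may be divided, so that their values are uncertain to that extent. The pseudogene Ftl1-ps1 (chromosome 13, 74399694 to 74407346, plus strand) was listed at 43.4 and 37.9 FPKM in untreated Ctrl and PGC-1α cells, and 52.8 and 45.1 FPKM in their OGD counterparts, with Ctrl inside the range of the others. When it was added to Ftl1, the log2 fold changes were 0.77 for PGC-1α vs Ctrl and 0.94 for Ctrl+OGD vs Ctrl, and the ratio of Fth1 to Ftl1 was 6.04 in Ctrl against 3.0 in PGC-1α, and 2.48 against 2.16 after OGD.

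**Figure D3:**
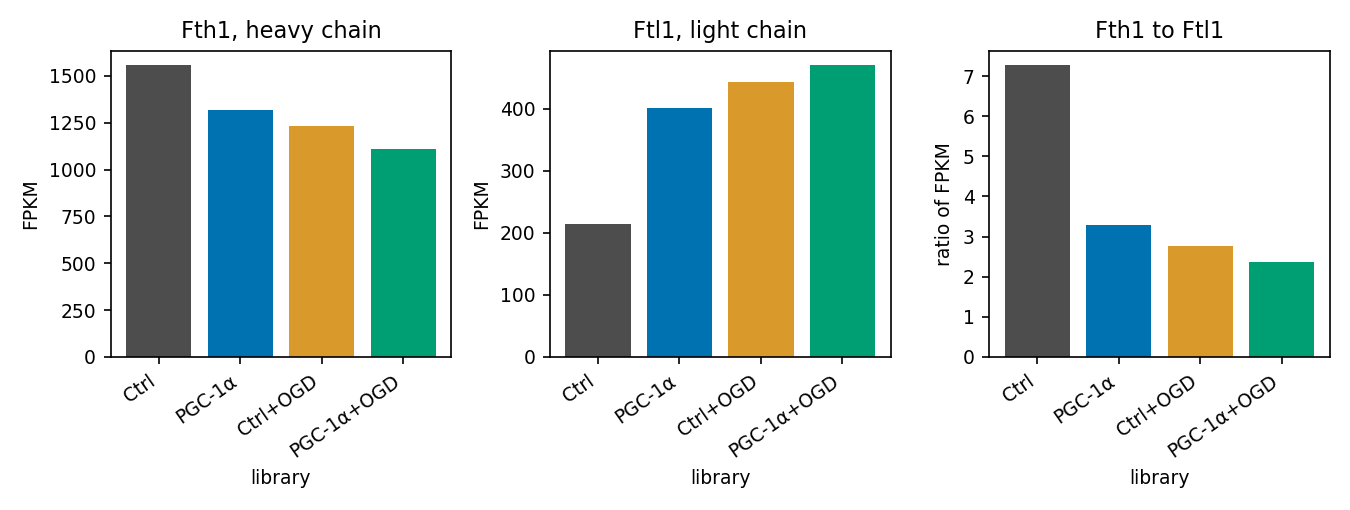
FPKM of the ferritin heavy chain gene Fth1 and light chain gene Ftl1 and their ratio in the 4 libraries, 1 bar per library, each panel with its own axis from 0. Ftl1 in Ctrl, at 214 FPKM, is the lowest of its bars, and the ratio is 7.27 in Ctrl against 2.37 to 3.28 in the other 3 libraries.

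Ncoa4 encodes the receptor that delivers ferritin to autophagosomes, and was first known as a coactivator of nuclear receptors. The gene (ENSMUSG00000056234, chromosome 14, 32159865 to 32179855, plus strand) was at 7.32 FPKM in Ctrl, with 21.5 FPKM in PGC-1α, and at 5.49 and 7.82 FPKM in Ctrl+OGD and PGC-1α+OGD. The PGC-1α library stood alone above the other 3. Against Ctrl it was higher by 1.43 on the log2 scale, 60th from the top of all genes tested and a ratio of 2.93 in FPKM. PGC-1α+OGD vs PGC-1α gave -1.35, 81st from the bottom. Both rest on the same value of the PGC-1α library. The comparisons without that library gave 0.44 for PGC-1α+OGD vs Ctrl+OGD and -0.36 for Ctrl+OGD vs Ctrl, both under 1.5-fold. By Ncoa4-201 alone, however, Ctrl+OGD vs Ctrl gave -1.26, past 1.5-fold.

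The 4 deposited transcripts of Ncoa4 use start sites in 2 places. Ncoa4-202, Ncoa4-207 and Ncoa4-208 start between positions 32159865 and 32159981, and Ncoa4-201 starts at 32165791. The downstream form, Ncoa4-201, was at 2.48 FPKM in Ctrl against 13.9 FPKM in PGC-1α, and 0.458 FPKM against 0.780 FPKM in the same cells after OGD. It made up 33.9%, 64.7%, 8.33% and 9.98% of the gene in that order, so that its share was lower in both OGD libraries than in both libraries without OGD. The upstream forms together were at 4.84, 7.59, 5.04 and 7.04 FPKM, an order that rests on Ncoa4-207.

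Among the upstream forms, Ncoa4-207 had 6.40 FPKM in the PGC-1α library, while the remaining 3 list it at 0. It is a short model of 791 bases, so that a given number of fragments adds more FPKM to it than to the longer forms. Without it, a sum added after the data were seen, the upstream forms were at 1.20 FPKM in PGC-1α, the lowest of the 4 libraries, and with each transcript weighted by its length PGC-1α was also the lowest. Ncoa4-202 was at 1.60, 0.602, 1.68 and 2.91 FPKM in Ctrl and PGC-1α, then Ctrl+OGD and PGC-1α+OGD, and Ncoa4-208 at 3.24, 0.594, 3.36 and 4.13 FPKM, so both were lowest in the library where Ncoa4-207 appeared. Weighting each transcript by its length before summing, which was chosen after the data were seen, left the log2 fold change of Ncoa4 at 1.39 with PGC-1α and at -1.35 when PGC-1α+OGD was compared with PGC-1α. By Ncoa4-201 alone, the transcript with the highest mean over the 4 libraries, these values were 2.1 and -3.06. That highest mean rests on the PGC-1α library, and in each of the others Ncoa4-208 was above Ncoa4-201. The choice of this transcript is therefore no separate check of the PGC-1α value. Ncoa4-201 and Ncoa4-202 both have 1875 coding bases in the annotation.

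A stretch of 30 bases before each start is shown because the forms that begin at these places differed between libraries. Positions are those of GRCm38.p6 on the plus strand, counted from the RefSeq starts at 32159887 and 32165789. The capitals mark a match to the NRF1 motif (GCGCANGCG) at the upstream start, and matches to the antioxidant response element core (TGACNNNGC) and to a TATA box (TATAAA) at the downstream start.

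Ncoa4 upstream start, chr14:32159832-32159861: aagactttGCGCAGGCGcggaaggaaatct
Ncoa4 downstream start, chr14:32165745-32165774: TGACCTGGCcggtagggTATAAAcctggcc

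NRF1 is a transcription factor through which PGC-1α is known to act on mitochondrial genes. Of all 32851 promoter windows, 6.25% hold this NRF1 motif on either strand, 12.4% the antioxidant response element core and 13.6% the TATA box. In the 17 windows of the 10 genes, the NRF1 motif was matched in 3 windows, of Ncoa4 and of Gpx4, whose overlapping windows share 1 match. The antioxidant response element core was matched in 1 window, of Ncoa4. The TATA box was matched in 3 windows, of Ncoa4, of Ftl1, where it lies after the start, and of Fth1, where it is on the opposite strand. The motif AAGGTCA of the estrogen-related receptors, which work with PGC-1α, is in 4.72% of all windows and was matched in 0 of the 17. Gpx4, which holds the same letters GCGCAGGCG, had log2 fold changes of -0.03 and -0.08 with PGC-1α. Whether NRF1 acts on Ncoa4 or Gpx4 in these cells was not tested.

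**Figure D4:**
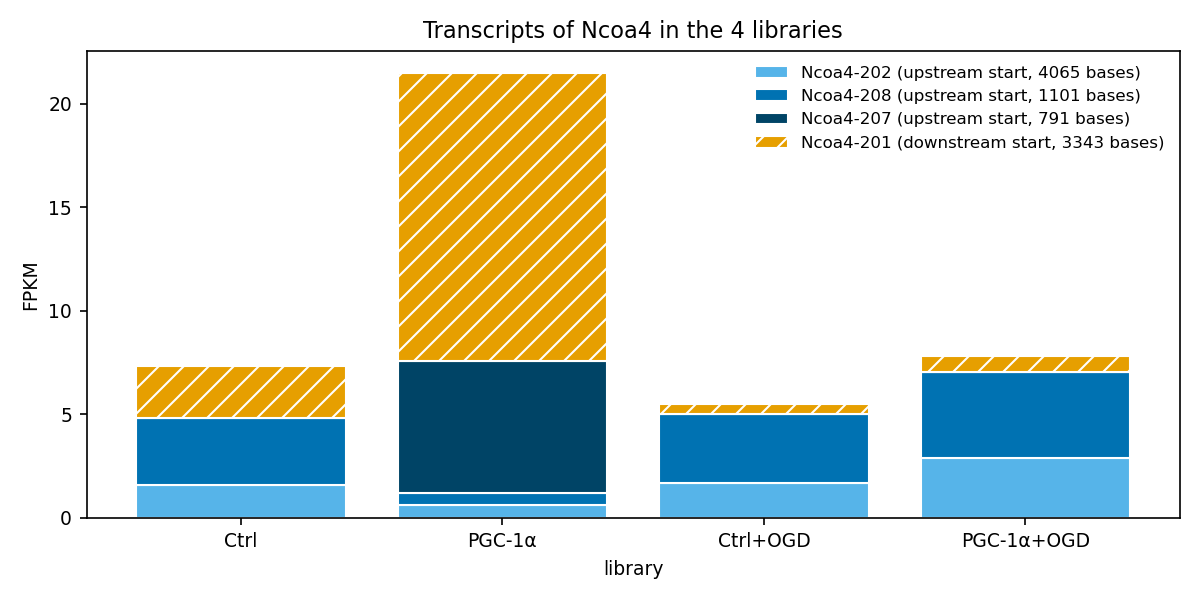
FPKM of the 4 deposited Ncoa4 transcripts stacked by library, with solid colours for the 3 that begin at the upstream start and hatching for Ncoa4-201, which begins at the downstream start. The PGC-1α bar reaches 21.5 FPKM, of which 13.9 FPKM is Ncoa4-201 and 6.40 FPKM Ncoa4-207, while the other bars end between 5.49 and 7.82 FPKM.

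The ratio of Tfrc to Ncoa4 in FPKM was 3.90 in Ctrl against 1.85 in PGC-1α, and 7.04 against 5.96 after OGD. It was lower in both libraries without OGD than in both with it. Iron import and ferritin release themselves were not measured. The change with OGD differed most between the 2 kinds of cells in Ncoa4 and Ftl1. On the log2 scale, the change with OGD in PGC-1α cells minus that in control cells was -0.99 for Ncoa4 and -0.82 for Ftl1, and lay between -0.20 and 0.43 for the other 8 genes. With 1 library per group these differences could not be tested.

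Around the 10 genes, 102 other genes of the same biology were placed in 8 lists, of which 81 had a mean of at least 1 FPKM and were compared. Of these, 5 were at least 1.5-fold higher and 5 lower in PGC-1α vs Ctrl, 1 higher and 3 lower in PGC-1α+OGD vs Ctrl+OGD, 6 higher and 4 lower in Ctrl+OGD vs Ctrl, and 5 higher and 3 lower in PGC-1α+OGD vs PGC-1α. Their medians were 0.04, 0.01, 0.12 and 0.08. These counts are to be read against the shares of all genes given above. In all, 23 of the 81 passed 1.5-fold in at least 1 comparison, as did 24.7% of all genes.

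In the glutathione list, 8 of 9 genes were compared. Gclm, the modifier subunit of the rate-limiting enzyme of glutathione synthesis, was at 3.15 and 9.88 FPKM in untreated Ctrl and PGC-1α cells, and 6.76 and 6.59 FPKM in their OGD counterparts, lowest in Ctrl as Ftl1 was. Against Ctrl, it was higher by 1.39 on the log2 scale in PGC-1α and by 0.90 in Ctrl+OGD. The catalytic subunit gene Gclc was at 11.3, 10.1, 13.4 and 12.8 FPKM in the same order, with no comparison past 1.5-fold. The remaining genes past the line in this list were Chac1 and Cth, given above.

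In the list of lipid peroxide defence, all 14 other genes were compared, and the ubiquinone side chain gene Pdss1 (0.65) and Vkorc1l1 (1.05), a vitamin K reductase, were higher in PGC-1α vs Ctrl. Vkorc1l1 was at 8.40 FPKM in Ctrl, with 18.4 FPKM in PGC-1α, and at 12.1 and 12.2 FPKM in Ctrl+OGD and PGC-1α+OGD. Eefsec, the elongation factor that inserts selenocysteine into proteins such as GPX4, was lower in PGC-1α+OGD than in Ctrl+OGD, at 12.5 against 20.0 FPKM (log2 fold change -0.64). Nqo1 and Dhodh, which also reduce quinones, passed 1.5-fold in no comparison.

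In the list of polyunsaturated phospholipids, 13 of 20 genes were compared. The desaturase gene Scd2, whose monounsaturated products compete with polyunsaturated ones, was at 90.9 FPKM in Ctrl against 154 FPKM in PGC-1α, and 128 FPKM against 144 FPKM in the same cells after OGD, past 1.5-fold in PGC-1α vs Ctrl (0.75), where the acyltransferase gene Mboat1 was lower (-0.65). Cyb5r1, a reductase that can feed lipid peroxidation, was at 11.3 and 9.50 FPKM in untreated Ctrl and PGC-1α cells, and 16.8 and 5.05 FPKM in their OGD counterparts, with log2 fold changes of -1.56 for PGC-1α+OGD vs Ctrl+OGD and -0.79 for PGC-1α+OGD vs PGC-1α. Acsl1, an acyl-CoA synthetase like Acsl4, was at 11.4, 9.38, 6.57 and 12.5 FPKM, lower in Ctrl+OGD vs Ctrl (-0.71) and higher in PGC-1α+OGD vs Ctrl+OGD (0.83). Agps, of ether lipid synthesis, was lower in Ctrl+OGD vs Ctrl (-0.60).

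Of the iron uptake list, 8 of 11 other genes were compared. Steap2, a metalloreductase, was lower in Ctrl+OGD, at 33.7 FPKM against 51.6 FPKM in Ctrl (-0.60). Hmox1, the heme oxygenase that frees iron from heme, was at 15.9 FPKM in Ctrl, with 23.4 FPKM in PGC-1α, and at 18.6 and 12.6 FPKM in Ctrl+OGD and PGC-1α+OGD, past 1.5-fold only between PGC-1α+OGD and PGC-1α (-0.84). The iron carriers Slc11a2 and Slc39a14 did not pass 1.5-fold in any comparison. Of the iron storage and export list, 4 of 8 other genes were compared, and Cp, the ferroxidase ceruloplasmin that assists iron export, showed the largest difference of any list gene in Ctrl+OGD vs Ctrl. Cp was at 54.6 FPKM in Ctrl against 33.6 FPKM in PGC-1α, and 9.29 FPKM against 9.67 FPKM in the same cells after OGD, and both OGD libraries were far below both libraries without OGD. Its log2 fold changes were -0.69 for PGC-1α vs Ctrl, 0.05 for PGC-1α+OGD vs Ctrl+OGD, -2.43 for Ctrl+OGD vs Ctrl, while PGC-1α+OGD vs PGC-1α gave -1.70.

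The genes of iron sensing, of which 4 of 7 were compared, included Aco1 and Ireb2, which encode the 2 iron regulatory proteins that bind the elements shown above. Aco1 was at 16.8 and 20.99 FPKM in untreated Ctrl and PGC-1α cells, and 19.2 and 19.8 FPKM in their OGD counterparts, and Ireb2 at 13.5, 13.9, 12.02 and 12.9 FPKM. No gene of this list passed 1.5-fold in any comparison.

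In the list of mitochondrial iron and iron-sulfur clusters all 16 genes were compared, and 4 were higher in Ctrl+OGD vs Ctrl, beside 6.20% of all genes. They were the mitochondrial iron importer gene Slc25a37 (1.33), Isca1 (0.92) and Glrx5 (0.84) of cluster assembly, and Cisd3 (0.62), which encodes a cluster-binding protein. Slc25a37 was at 3.09 FPKM in Ctrl, with 4.43 FPKM in PGC-1α, and at 9.26 and 3.27 FPKM in Ctrl+OGD and PGC-1α+OGD, so that Ctrl+OGD stood alone and PGC-1α+OGD vs Ctrl+OGD gave -1.26. Isca1 was at 23.45 FPKM in Ctrl against 54.2 FPKM in PGC-1α, and 45.3 FPKM against 48.5 FPKM in the same cells after OGD, another gene that was lowest in Ctrl, with 1.17 for PGC-1α vs Ctrl. Hscb, a cochaperone of cluster assembly, was lower in that comparison (-0.63). The median of this list was 0.24 in PGC-1α vs Ctrl and 0.17 in Ctrl+OGD vs Ctrl, beside -0.03 and -0.02 over all genes tested. Both comparisons rest on the Ctrl library.

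Among regulators of ferroptosis, 14 of 17 genes were compared. Nfe2l2, which encodes the antioxidant regulator NRF2, was at 58.6, 48.4, 46.2 and 44.8 FPKM in Ctrl and PGC-1α, then Ctrl+OGD and PGC-1α+OGD, and Keap1, its inhibitor, at 23.8, 23.9, 23.7 and 22.8 FPKM, with no difference past 1.5-fold in either gene. Sat1, of polyamine breakdown, was lower in PGC-1α vs Ctrl (-0.66) and higher in PGC-1α cells after OGD (0.75). The chaperone gene Hspa5 was higher in Ctrl+OGD vs Ctrl (0.59), and Atf4 is given above.

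**Figure D5:**
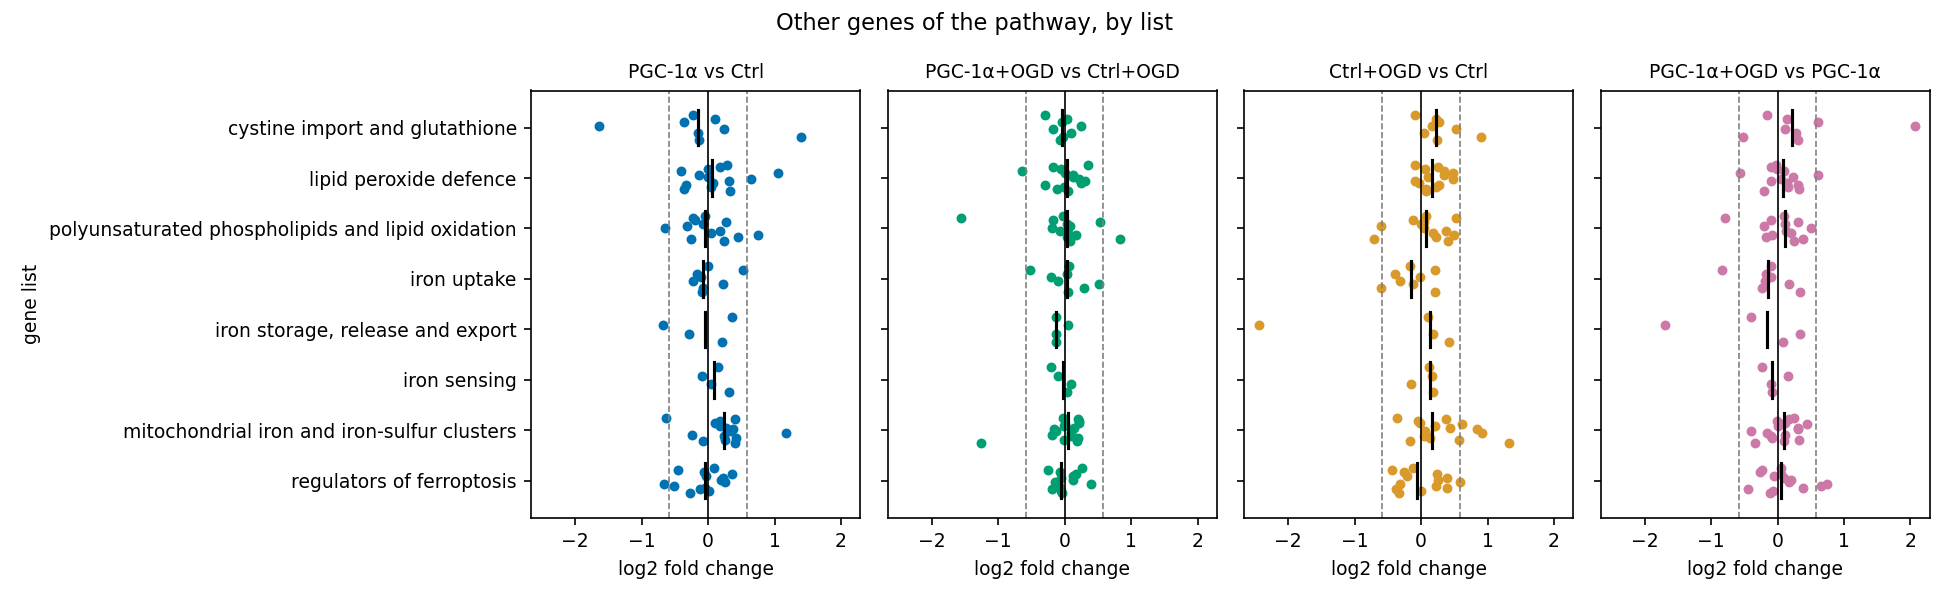
Log2 fold change of the 81 other genes compared, 1 panel per comparison and 1 row per list, each point a gene, black ticks the list medians and dashed lines 1.5-fold. Most points lie between the lines in every panel, the farthest being Cp at -2.43 in Ctrl+OGD vs Ctrl and Chac1 at 2.07 in PGC-1α+OGD vs PGC-1α.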

How the data were processed

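RNA from 4 HT-22 libraries, 1 per group, had been sequenced, and groups were taken from the sample records. Per the paper's methods and the submitters' processing notes, mRNA was enriched, libraries were read from both ends, and reads were aligned to GRCm38 with HISAT2 2.1.0. The authors deposited values per transcript whose unit is not named. They were taken as FPKM, since they are never negative and their totals differ between libraries. The quantification program is not given in the sources used here. Every deposited transcript reached 0.500 FPKM in at least 1 library. Since the reads per library are unknown, no precision can be attached to a single value.

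Identifiers without their version matched GENCODE M21 for 25822 of 25889 transcripts (99.7%), and the values of each gene were summed over its deposited transcripts. Genes averaging 1 FPKM or more were compared on the log2(FPKM + 1) scale, which understates changes of low genes, and a difference of at least 1.5-fold was counted. No p value was computed. Fth1 is the gene of the 10 whose transcript version differs from M21. Genes named are the 10 genes, Ppargc1a, the markers and the list genes past 1.5-fold in at least 1 comparison, except 1 that is not reported here, while Gclc, Nqo1, Dhodh, Slc11a2, Slc39a14, Aco1, Ireb2, Nfe2l2, Keap1 and Ftl1-ps1 were picked for contrast after their values were seen. The 10 genes and the lists, which were written from general knowledge, were chosen with earlier results of these data known. The code of the fold calculation was checked on simulated data in which the change of each altered gene was set exactly. This check gives no measure of error in real libraries. Promoter windows came from RefSeq (GRCm38.p6) and matched all 10 genes by symbol. Alternatives were pseudocounts of 0.1 and 0.01, no filter, a filter at a mean of 5, scaling by median ratio or by upper quartile, the highest transcript, matching versions only and a fold change of 2. The highest transcript of a gene is the one with the highest mean over the libraries. Length weighting and adding Ftl1-ps1 to Ftl1 were chosen after the data were seen. The tools were Python (3.11.15) with pandas (2.3.3), matplotlib (3.10.9) and numpy (2.4.6).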

Additional observations from a re-analysis of the deposited data

Results flagged for a closer look

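None of the 10 genes passed 1.5-fold one way in one setting with the opposite sign in the other, but 9 genes of the lists did, and with 1 library per group these differences were not tested. For the effect of PGC-1α, the log2 fold changes without and with OGD were 1.39 and -0.03 for Gclm (a difference of -1.42), -1.65 and 0.25 for Chac1 (1.90), -0.25 and 0.83 for Acsl1 (1.09), -0.69 and 0.05 for Cp (0.74), 0.41 and -1.26 for Slc25a37 (-1.67), and -0.66 and 0.39 for Sat1 (1.06).

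For the effect of OGD, the log2 fold changes in control and in PGC-1α cells were 0.90 and -0.52 for Gclm (-1.42), -0.71 and 0.38 for Acsl1 (1.09), 0.53 and -0.79 for Cyb5r1 (-1.33), 0.22 and -0.84 for Hmox1 (-1.06), 1.33 and -0.35 for Slc25a37 (-1.67), 0.92 and -0.16 for Isca1 (-1.08), and -0.31 and 0.75 for Sat1 (1.06). Since all 4 libraries enter both differences, a gene has the same difference in both.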

How the results depend on the processing

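Of 392 log2 fold changes of the 10 genes under an alternative other than a fold change of 2, 384 kept their direction and their side of 1.5-fold. Many of these could not change. The filters and matching versions decide which genes are compared and leave the values of the 10 genes as they were. Adding Ftl1-ps1 alters Ftl1 alone. The highest transcript and length weighting cannot move Slc7a11, Lpcat3, Fth1 or Ftl1, which have 1 deposited transcript each. The count of 384 is therefore no measure of how stable the values are. With a fold change of 2, the genes counted as higher in PGC-1α vs Ctrl numbered 1 (Ncoa4) in place of 3. With a pseudocount of 0.1 or of 0.01, 1 gene (Aifm2) was counted as higher in PGC-1α+OGD vs Ctrl+OGD in place of 0. With the highest transcript in place of the sum, 1 gene (Ncoa4, -1.26) was counted as lower in Ctrl+OGD vs Ctrl in place of 0, and Aifm2 was under 1.5-fold in PGC-1α vs Ctrl (0.52). With a mean of at least 5, which leaves out Slc7a11, the median of PGC-1α+OGD vs PGC-1α was -0.00055 in place of 0.06. With the highest transcript, the genes counted as higher and lower over the whole table were 814 and 971 in PGC-1α vs Ctrl (521 and 597 after summing), 609 and 755 in PGC-1α+OGD vs Ctrl+OGD (327 and 405), 1001 and 1086 in Ctrl+OGD vs Ctrl (657 and 818) and 779 and 911 in PGC-1α+OGD vs PGC-1α (405 and 553). With a fold change of 2 they were 156 and 162, 108 and 114, 158 and 206, and 126 and 177, and with a mean of at least 5 they were 368 and 363, 200 and 233, 519 and 489, and 263 and 307. The values of Gpx4 and Acsl4 that lie near 0 changed sign under median ratio scaling (Gpx4, 0.00293 in PGC-1α vs Ctrl and 0.01 in PGC-1α+OGD vs PGC-1α) or with the highest transcript (Gpx4, 0.03, and Acsl4, -0.01, in PGC-1α vs Ctrl). The largest shift of the median of all genes with a scaling was 0.03. No paired analysis was possible because each group holds 1 library, all with the same replicate number. Leaving out a library removes its group, and an additive fit over the 4 libraries, which would assume the same PGC-1α difference with and without OGD, was not run. The read depth, which is unknown, sets an unstated limit on low genes such as Slc7a11.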
